A study of Canis lupus familiaris with 6 samples.

Results

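Tight junctions are belts of claudin strands that seal neighbouring epithelial cells to each other near their apical side. Claudins and occludin span the membrane, and zonula occludens proteins and cingulin tie them from the inside to actin and myosin. In the kidney tubule the claudins present decide which ions cross between cells: CLDN2 forms cation and water channels of leaky proximal segments, and CLDN3 tightens the seal. The genes described here are 6 listed ones: the claudins CLDN2 and CLDN3, occludin (OCLN), cingulin (CGN), and the zonula occludens genes TJP1 and TJP3. Of these, 5 had a probe on the array that carried a dog RefSeq transcript of the gene, of 1436 genes with such a match in all; they had 8 probes and 16 spots, among 43584 probes. CLDN2, CGN and TJP1 had 2 probes each, and CLDN3 and OCLN 1 each. TJP3, a relative of TJP1, had 0 matched probes and was not analysed here. Probes were placed in a gene by their transcript accession, not by any measured value.

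The cells were MDCK-II, a dog kidney tubule epithelial line, carrying a hairpin RNA against the polarity gene scribble that tetracycline switches on. Cultures with 5 µg/ml tetracycline and cultures without it were each taken at 30, 45 and 60 h, with 1 array for each arm and time, hybridised with Cy3-labelled RNA mixed from 3 wells. All 6 arrays come from the hairpin line, so an effect of tetracycline itself and one of the hairpin cannot be told apart, and the labels used here do not say whether the line is 1 clone. Whether scribble RNA was lower was not analysed here, since no probe of it was matched to a name. With 1 array per condition there is no replicate of a condition. The tests of the arms and of time in culture below rest on how the difference between the arms varied over the 3 times. The test of whether that difference grew with time rests on its departure from a straight line. None of them measures the spread between repeat cultures.

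All 8 probes were well above background on all 6 arrays and none was saturated. Between 64.3% and 68.8% of spots on an array were well above background. The epithelial markers CDH1 (E-cadherin) and KRT19, the 2 of 9 tubule markers with a named probe, were well above background on all arrays. Their summed signal, mostly KRT19, was lower with tetracycline at each time. It spanned 75.8 to 84.0 with tetracycline and 88.8 to 96.5 without. The log2 differences at 30, 45 and 60 h were -0.28, -0.34 and -0.13 for KRT19 and -0.01, 0.06 and 0.51 for CDH1. Of 7 fibroblast markers 5 had a probe. DCN was below that level on all arrays, while COL1A1, COL1A2, PDGFRB and THY1 were above it on all arrays. Detection thus did not set the epithelial markers apart. The log2 differences with minus without tetracycline at 30, 45 and 60 h were 0.26, 0.70 and 0.82 for COL1A1 and 0.21, -0.06 and -0.11 for COL1A2. They were 0.02, 0.16 and -0.23 for PDGFRB, and -0.01, 0.16 and 0.01 for THY1. The summed signal of the 5 fibroblast markers spanned 3.60 to 3.74 with tetracycline and 3.27 to 3.77 without. Of 5 endothelial markers 2 had a probe, KDR and VWF, both well above background on all arrays. KDR differed by -0.03, 0.29 and 0.53 and VWF by -0.13, 0.09 and -0.06. Their summed signal, mostly VWF, spanned 22.0 to 24.7 with tetracycline and 23.1 to 24.2 without. CD79A, the 1 of 5 leukocyte markers with a probe, was also well above background on all arrays. It spanned 0.104 to 0.124 with tetracycline and 0.114 to 0.129 without. The part of these markers in the differences below was not tested. The 30 h arrays share slide 1 and the 60 h arrays slide 2, while at 45 h the array with tetracycline lies on slide 2 and the one without on slide 1.

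Of the genes measured, CLDN2 stood apart by time and arm. Levels are given as relative intensity, the signal of a probe divided by the 75th percentile of its array, so that a value of 1 equals that percentile; they serve to compare arrays for 1 probe, not probes with each other. On the brighter CLDN2 probe the relative intensity with tetracycline was 0.646 at 30 h, 0.664 at 45 h and 0.466 at 60 h, against 0.621, 0.864 and 1.46 without it. On the dimmer CLDN2 probe it was 0.295, 0.212 and 0.164 with tetracycline, against 0.314, 0.438 and 0.662 without. The arms lay close together at 30 h on both probes, and from 45 h the cultures with tetracycline were below those without. In such bulk RNA, fewer cells making a transcript and less transcript per cell cannot be told apart.

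**Figure D1:**
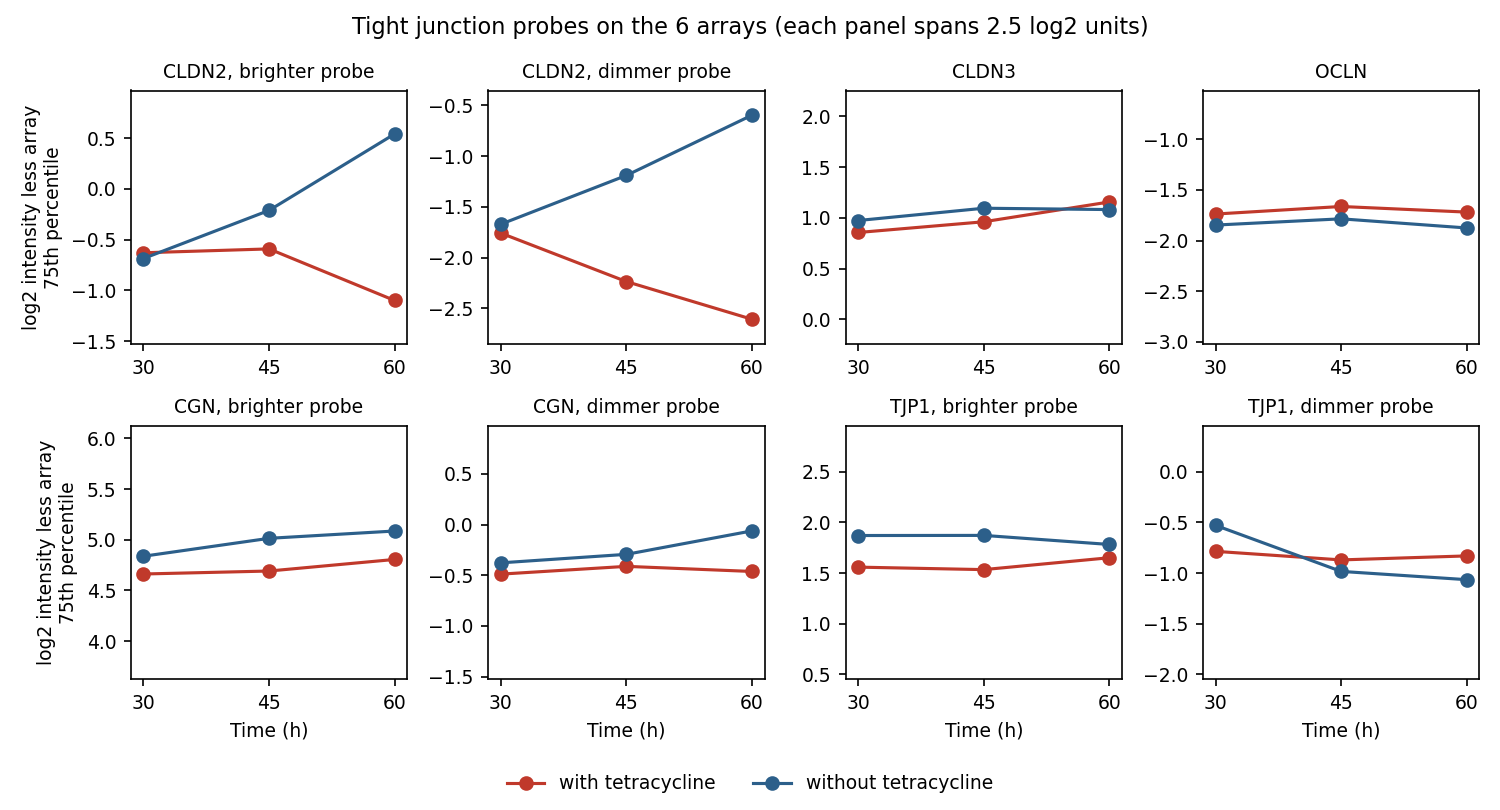
Level of each tight junction probe (log2 intensity less the array's 75th percentile, vertical axis) against time in h, with tetracycline in red and without in blue; each point is 1 array and there are no error bars. The CLDN2 lines part after 30 h on both probes, reaching 0.466 against 1.46 and 0.164 against 0.662 in relative intensity at 60 h, while the other panels stay within 0.54 log2 units in either arm.

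Expressed as log2 differences between the arms (with minus without), the brighter CLDN2 probe differed by 0.06 at 30 h, -0.38 at 45 h and -1.64 at 60 h, where it was 3.12-fold lower. The dimmer probe differed by -0.09, -1.05 and -2.01, or 4.04-fold lower at 60 h. At 60 h both probes were thus at least 2-fold lower, against 4.64% of all probes. At 45 h the dimmer one alone was past that size, against 3.04% of all probes, and with normexp background correction it was at -0.83 and the count of tight junction probes past 2-fold at 45 h was 0. None of the 8 tight junction probes was 2-fold lower at 30 h (1.7% of all probes) or 2-fold higher at 30 h (1.81%), 45 h (1.94%) or 60 h (3.04%). Differences as low as those of CLDN2 at 60 h, or lower, were found for 2.10% of probes in the case of the brighter probe and 1.48% in the case of the dimmer.

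The 2 arms contributed to the CLDN2 difference from opposite sides. Between single arrays, with no test, from 30 to 60 h the brighter probe went 1.39-fold down with tetracycline (log2 change -0.47) and 2.34-fold up without (1.23). The dimmer probe went 1.80-fold down with tetracycline (-0.85) and 2.11-fold up without (1.08). The signal of both probes without tetracycline was higher at each later time, whereas with tetracycline the brighter probe was level until 45 h (0.04) and the dimmer one already lower then (-0.48). On the dimmer probe both later arrays were below the 30 h array with tetracycline and above it without, a pattern picked out after its values were seen and found in 9.07% of all probes.

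Only some of these steps lie within 1 slide. On slide 2, with tetracycline, CLDN2 at 60 h differed from 45 h by -0.51 on the brighter probe and -0.37 on the dimmer. On slide 1, without tetracycline, 45 h differed from 30 h by 0.47 and 0.48. The changes from 30 to 60 h in either arm, and the step from 45 to 60 h without tetracycline (0.75 and 0.59), cross from slide 1 to slide 2, and the part of the slide in them was not tested. The 60 h difference between the arms comes from arrays of the same slide.

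The comparison of the arms over all times asks which of these genes differ between cultures with and without tetracycline. It was made with limma, with time as a block, on the 28178 probes detected throughout (at 30, 45 and 60 h) with or without tetracycline, where detected means well above background. Of the 8 tight junction probes, 0 passed an adjusted p of 0.05, and neither did any other probe (0.0% of 28178). An unadjusted p under 0.05 was reached by 3 of the 8, the dimmer CLDN2 probe and the brighter probes of CGN and TJP1, against 23.3% of all probes. Mean differences of CLDN2 were -0.66 ± 0.35 on the brighter probe (limma adjusted p = 0.329) and -1.05 ± 0.38 on the dimmer (adjusted p = 0.210). Each ± for the arms is the moderated SE of limma, not the spread of the 3 pairs of arrays alone. It joins that spread (2 residual degrees of freedom) to the variance shared between probes (prior degrees of freedom 2.38), and the intervals and p-values rest on it too. Leaving out the 60 h pair gave -0.16 and -0.57, and leaving out the 30 h pair -1.01 and -1.53.

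Whether the difference between the arms grew with time was tested as its slope per 15 h. The slope of CLDN2 was -0.85 ± 0.14 on the brighter probe (limma adjusted p = 0.128; 95% interval -1.25 to -0.45) and -0.96 ± 0.07 on the dimmer (adjusted p = 0.107; -1.16 to -0.77). Again 0 of 8 tight junction probes and 0.0% of all probes passed an adjusted p of 0.05. At an unadjusted p under 0.05 stood 3 of the 8, both CLDN2 probes and the dimmer TJP1 probe, against 19.1% of all probes. With 1 residual degree of freedom this test leans on the variance shared between probes, and its ± is again the moderated SE. The 95% intervals, here and below, are not adjusted for the number of probes tested or for the choice of genes. The number of CLDN2 probes past the threshold was 1 with median scaling, 2 with normexp background correction and 2 with a trended and robust prior, settings under which 301, 1802 and 1831 of the 28178 probes passed.

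CLDN3, a barrier-forming claudin measured by 1 probe, stayed near the same level in both arms. Its relative intensity was 1.81, 1.95 and 2.23 with tetracycline at 30, 45 and 60 h, against 1.96, 2.14 and 2.12 without. The arms overlapped, with tetracycline slightly lower at 30 and 45 h (-0.12 and -0.13) and slightly higher at 60 h (0.08). The mean difference was -0.06 ± 0.08 (limma adjusted p = 0.692), with a 95% interval of -0.27 to 0.15, which bounds a steady difference over the 3 times but not a short-lived one. The contrast of the 2 claudins was therefore largest at 60 h, where CLDN2 was at -1.64 and -2.01 and CLDN3 at 0.08; this difference between genes was not tested.

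OCLN, a 4-pass membrane protein of the junction strand, was slightly higher with tetracycline each time. Its relative intensity, the mean of up to 5 spots, was 0.300, 0.316 and 0.304 with tetracycline and 0.278, 0.290 and 0.272 without. The lowest value with tetracycline lay above the highest without. The arms were also parted, but with tetracycline below, on both CGN probes, the brighter TJP1 probe and the dimmer CLDN2 probe. How many of all probes are parted in either way was not counted. The log2 differences were 0.11, 0.12 and 0.16, the one tight junction probe of 8 higher at all 3 times (27.7% of all probes). The mean difference was 0.13 ± 0.07 (limma adjusted p = 0.308; 95% interval -0.05 to 0.30).

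The repeated spots of OCLN give the error within an array. Within an array the SD over the spots was 0.08 with tetracycline at each time, and 0.13, 0.15 and 0.07 without. Taken spot by spot, the difference between the arms was positive at 5 of 5 spots at 30 h, 3 of 4 at 45 h and 5 of 5 at 60 h, with 1 spot at 45 h left out as an outlier. Spots of 1 array share the RNA and the hybridisation, so they carry no information on the spread between cultures.

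**Figure D2:**
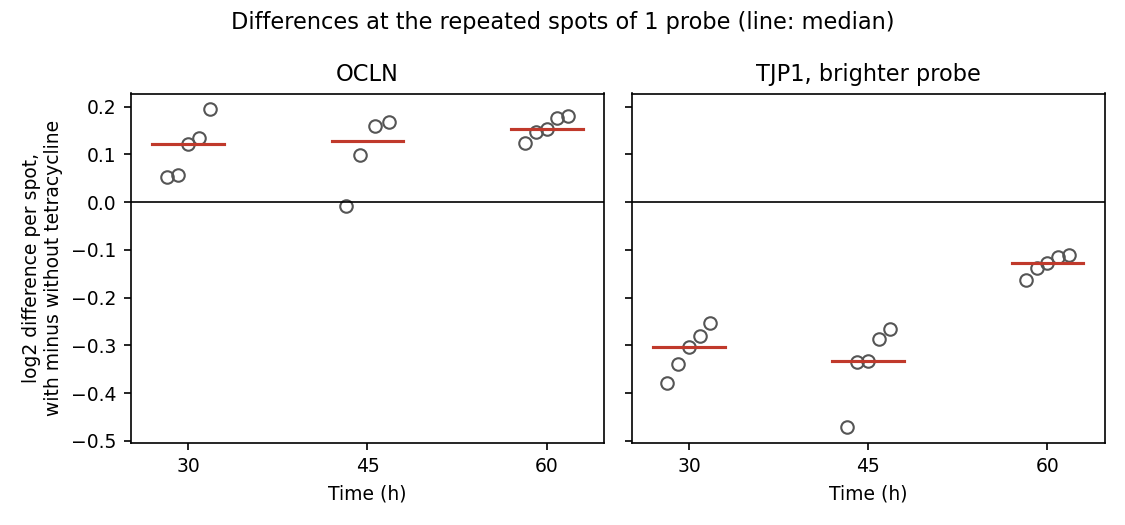
Log2 difference, with minus without tetracycline (vertical axis), at each repeated spot of the OCLN probe and of the brighter TJP1 probe against time in h; open points are spots at the same array position and the red line is their median. All but 1 OCLN spot lie above 0, and all TJP1 spots lie below it, nearest to 0 at 60 h.

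TJP1 encodes ZO-1, the scaffold that binds claudins and occludin and links them to actin. Its brighter probe had a relative intensity of 2.95, 2.90 and 3.14 with tetracycline, against 3.66, 3.66 and 3.44 without. The gap between the arms on this probe was narrowest at 60 h. The differences were -0.31, -0.34 and -0.13, a mean of -0.26 ± 0.08 (limma adjusted p = 0.172). All 5 spots of the probe were lower with tetracycline at each time, over a range of -0.38 to -0.25 at 30 h, -0.47 to -0.26 at 45 h and -0.16 to -0.11 at 60 h.

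The dimmer TJP1 probe did not follow the brighter one. Its relative intensity was 0.5801, 0.547 and 0.562 with tetracycline, against 0.693, 0.506 and 0.478 without. With tetracycline it was nearly level, while without it the 30 h array was high and the later ones low, so that the difference was -0.26 at 30 h, 0.11 at 45 h and 0.23 at 60 h. Its mean difference was 0.03 ± 0.12 (limma adjusted p = 0.904), and -0.072 when the arrays of 60 h were left out. The drop from 30 to 45 h without tetracycline, -0.45, lies within slide 1. A direction for TJP1 as a gene is therefore not given: its probes differ in sign at 45 and 60 h. The positions of the 2 probes on the transcript, and so the isoforms they read, were not analysed here.

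CGN encodes cingulin, a coiled-coil protein that joins ZO-1 to actomyosin. Its brighter probe had a relative intensity of 25.3, 25.9 and 28.0 with tetracycline, against 28.6, 32.3 and 34.0 without. The dimmer probe stood at 0.713, 0.752 and 0.726 with tetracycline, against 0.770, 0.816 and 0.958 without. On both probes each time pair was lower with tetracycline. The differences were -0.18, -0.32 and -0.28 on the brighter probe (mean -0.26 ± 0.07, limma adjusted p = 0.160) and -0.11, -0.12 and -0.40 on the dimmer (mean -0.21 ± 0.09, adjusted p = 0.258). In this way both CGN probes, the brighter TJP1 probe and the dimmer CLDN2 probe, 4 of 8 tight junction probes, were lower at all 3 times, against 21.9% of all probes. The median of the mean differences was -0.23 over the 8 probes, which are not independent as 6 of them share a gene with another, and 0.01 over all probes tested.

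**Figure D3:**
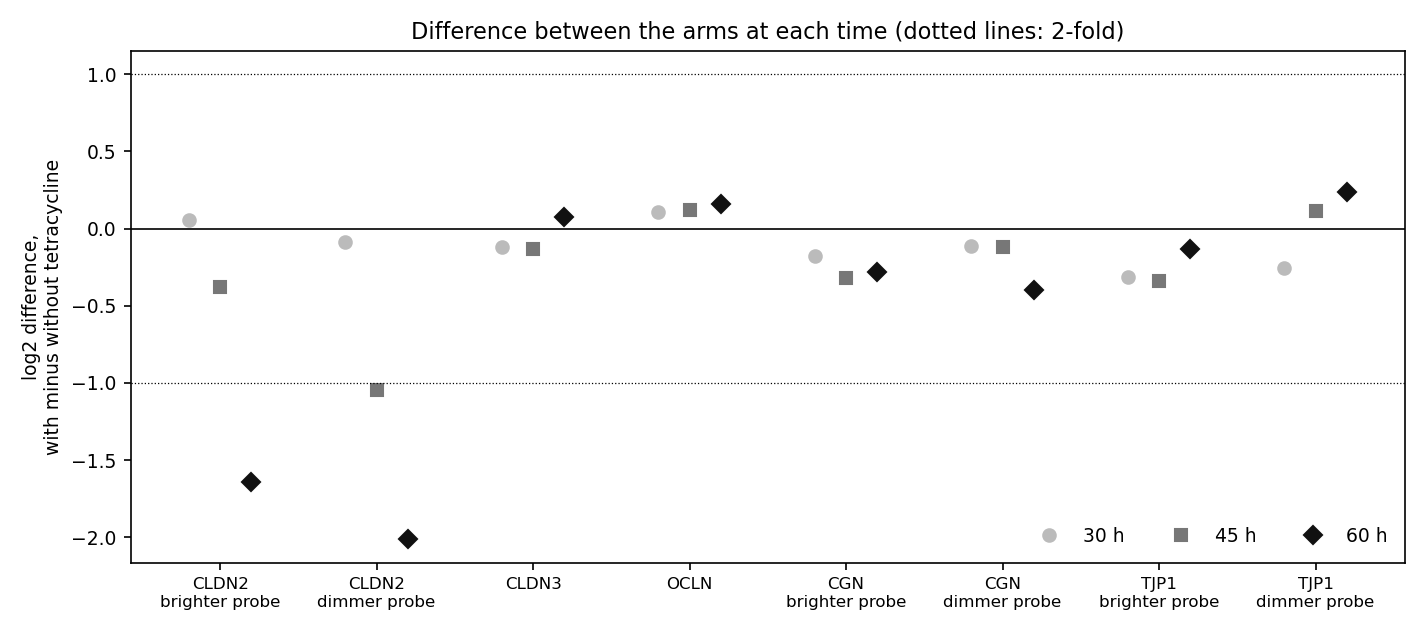
Log2 difference, with minus without tetracycline (vertical axis), for each tight junction probe (horizontal axis) at 30 h (light circles), 45 h (grey squares) and 60 h (black diamonds); each symbol is 1 pair of arrays and the dotted lines mark 2-fold. CLDN2 reaches -1.64 and -2.01 at 60 h, and the values of the other genes lie between -0.40 and 0.23.

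How well the 2 probes of a gene agreed was set beside the same measure for all 382 genes with at least 2 probes well above background on all arrays. The median disagreement of a gene's 2 brightest probes in the difference between the arms was 0.06 at 30 h, 0.08 at 45 h and 0.08 at 60 h. The CLDN2 probes disagreed by 0.14, 0.67 and 0.37, and at 45 h 1.05% of genes disagreed as much. The TJP1 probes disagreed by 0.06, 0.45 and 0.37, with 2.62% of genes as far apart at 45 h and 10.5% at 60 h. The CGN probes disagreed by 0.06, 0.20 and 0.12, which 14.7% of genes matched or passed at 45 h. Over the 6 arrays the levels of the 2 probes correlated at a Pearson r of 0.93 for CLDN2, 0.89 for CGN and 0.05 for TJP1, against a median of 0.93 over the 382 genes; these points share arrays and scaling. CLDN2 thus has probes that differ in size but not in sign at 45 and 60 h, and TJP1 has probes that differ in sign. The disagreement at 45 h falls on the pair of arrays that spans both slides, and the part of the slide in it was not tested.

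**Figure D4:**
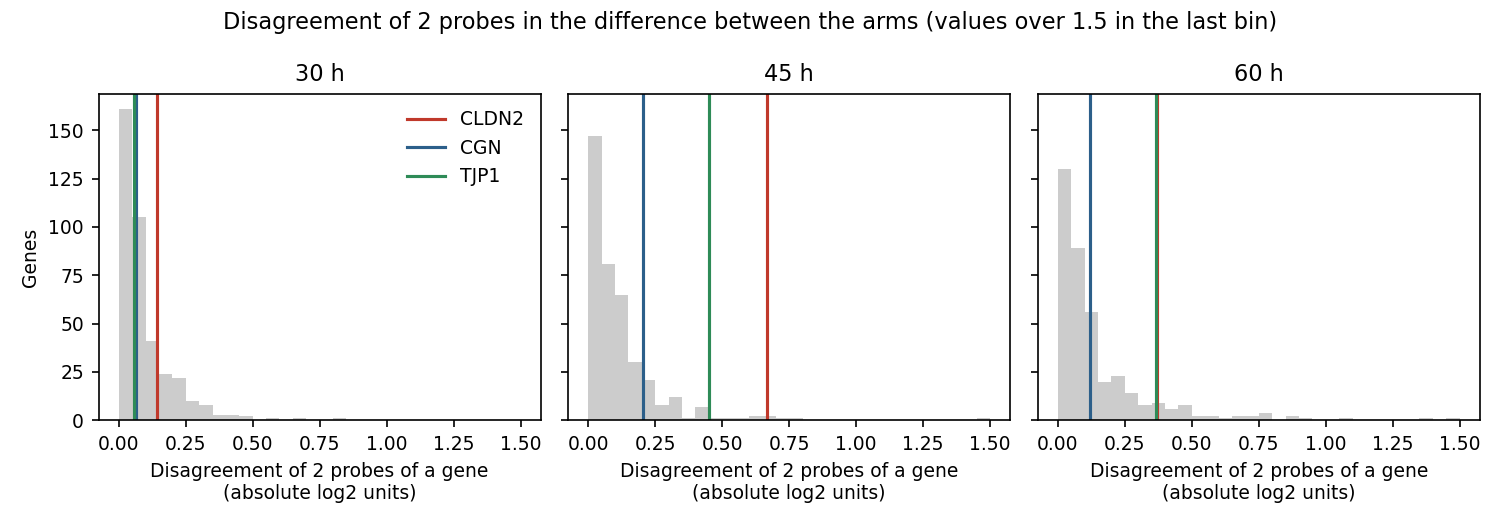
Number of genes (vertical axis) by the absolute disagreement, in log2 units (horizontal axis), of 2 probes of a gene in the difference between the arms at 30, 45 and 60 h, over 382 genes in grey. The lines mark CLDN2 (red), CGN (blue) and TJP1 (green); at 45 h CLDN2 at 0.67 and TJP1 at 0.45 lie in the right tail, and at 60 h both lie at 0.37.

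The change with time in culture common to both arms, 60 h against 30 h, was small for these genes. Of the 8 probes 0 passed an adjusted p of 0.05 (limma), against 8.17% of all probes, and 0 had an unadjusted p under 0.05, against 31.4%. Estimates ran from -0.29 ± 0.15 for the dimmer TJP1 probe (adjusted p = 0.253) to 0.38 ± 0.43 for the brighter CLDN2 probe (adjusted p = 0.588). For CLDN2 this estimate averages arms that went opposite ways. Its 95% interval was -0.77 to 1.53 on the brighter probe and -1.14 to 1.37 on the dimmer, which includes a 2-fold change.

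Among genes named on the array, those whose 6 levels were most like the brighter CLDN2 probe were sought over 973 genes well above background on all arrays. No other tight junction gene spanned a full log2 unit on its brightest probe, so the search was made for CLDN2 alone. The 4 highest Pearson r over 6 arrays, a description without a test, belonged to BAD (0.998), a BCL2-family promoter of cell death, BCHE (0.988), a cholinesterase, ANXA13 (0.983), an epithelial annexin, and CYP4A11 (0.976), a fatty acid hydroxylase of the proximal tubule. ANXA13 had a relative intensity of 14.4, 14.0 and 11.9 with tetracycline and 13.0, 16.9 and 20.4 without. CYP4A11 had 5.82, 6.81 and 4.81 with tetracycline and 6.21, 11.4 and 17.7 without. BAD and BCHE spanned far less than CLDN2, and ANXA13 also spanned less. BAD stood at 0.692, 0.694 and 0.628 with tetracycline against 0.688, 0.737 and 0.846 without. BCHE stood at 18.5, 18.5 and 17.3 with tetracycline against 18.8, 21.0 and 23.9 without. The 2 brightest CYP4A11 probes disagreed by 0.77 log2 units in the difference between the arms at 60 h.

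Of 69 other tight junction and polarity genes on a chosen list 7 had a named probe, and none passed an adjusted p of 0.05 for the arms, the slope or time (limma), while 2 had an unadjusted p under 0.05 for the arms (23.3% of all probes). At all 3 times 3 were higher with tetracycline (27.7% of all probes) and 1 lower (21.9%), and the median of the mean differences was 0.00, against 0.01 over all probes. RAB13, a small GTPase of traffic to the junction, stood lower at -0.13, -0.33 and -0.53 (mean -0.33 ± 0.10, adjusted p = 0.175). On the other side were RAC1, a GTPase of actin assembly, at 0.12, 0.27 and 0.55 (mean 0.31 ± 0.11, adjusted p = 0.195), the myosin heavy chain MYH9 at 0.00, 0.16 and 0.48 (mean 0.21) and RHOA at 0.02, 0.03 and 0.14 (mean 0.06). YBX3, a ZO-1-binding DNA-binding protein, stood at -0.10, -0.19 and 0.18, with no direction kept over time.

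Of 14 adherens junction, desmosome and keratin genes 4 had a named probe, 0 passed an adjusted p of 0.05 (limma) and 1 had an unadjusted p under 0.05 (23.3% of all probes). At all times 2 were lower (21.9% of all probes) and 0 higher (27.7%), with a median mean difference of 0.01, against 0.01 over all probes. KRT19 stood at -0.28, -0.34 and -0.13, and CTNNB1 (beta-catenin) at -0.05, -0.14 and -0.17. CDH1 stood at -0.01, 0.06 and 0.51, and JUP (plakoglobin) at -0.02, 0.00 and 0.42, so that at 60 h E-cadherin RNA was on the opposite side from CLDN2. Of 15 listed regulators of junction genes 1 had a named probe, SNAI2, a repressor known to act on junction genes. Its relative intensity was 0.167, 0.246 and 0.515 with tetracycline, against 0.179, 0.124 and 0.0853 without, and its mean difference was 1.16 ± 0.53 (limma adjusted p = 0.276).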

How the data were processed

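RNA of 6 conditions was hybridised to 1-colour Agilent dog arrays. Per the file headers and the submitters' processing notes, the deposited scanner files hold linear spot intensity from Agilent Feature Extraction 11.5.1.1, background-subtracted and spatially detrended, with no normalization between arrays. The flags used (other values of 0 or 1) are per the file headers. The authors' deposited value table proved to be that intensity multiplied by a constant per array (2.30 to 2.62; column medians 150.9 to 171.5), of unknown origin. Control and outlier spots were left out, spots of a probe averaged, and log2 values taken after division by each array's 75th percentile. Names were given by unversioned accession from RefSeq genes of UU_Cfam_GSD_1.0, without its coordinates as the arrays follow CanFam3.1; 2325 of 43584 probes received 1 symbol. An unnamed probe may belong to a gene of the lists. No sequences or positions were used here.

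Tests used limma 3.58.1 in R 4.3.3, two-sided, on each probe, with Benjamini-Hochberg adjustment over 28178 probes; the fit for the arms had 2 residual degrees of freedom and that for the slope 1. These 2 fits were tested on simulated data with independent noise and no slide effect, which checks the code and not this design. Counts of 2-fold differences at 1 time take probes detected in either arm at that time and carry no test. The number of arrays limits the precision. Named are all members with every probe, the 4 genes most like a member spanning at least 1 log2 unit, and up to 3 genes of each list in each direction, of which 1 is not reported here. Members and lists were chosen with earlier results of these data known. Alternatives covered scaling, background correction, the source of values, detection, probe choice, the prior, time and slide terms, left-out arrays and thresholds.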

Additional observations from a re-analysis of the deposited data

Results flagged for a closer look

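The dimmer CLDN2 probe drew attention because its arms went opposite ways: both later arrays were below the 30 h array with tetracycline (log2 change -0.85 by 60 h) and above it without (1.08). The slope of the difference between the arms was -0.96 per 15 h, and the test of that slope did not pass the threshold (limma adjusted p = 0.107). The brighter probe met the same description at 60 h but not at 45 h, where it stood 0.04 above its 30 h level with tetracycline.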

How the results depend on the processing

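The count of tight junction probes past an adjusted p of 0.05 was 0 for the arms and for time in culture under every alternative run. For the slope it was 0 in the reported fit, 1 with median scaling (CLDN2 dimmer probe, adjusted p = 0.0342), 2 with normexp and 2 with the trended and robust prior, and over all alternatives the CLDN2 slopes lay between -0.97 and -0.73 (adjusted p 0.00204 to 0.391). The 2-fold count at 45 h was 1, and 0 with normexp. For the arms, 103 single-probe values kept direction and side of the threshold and 3 reversed. Many of these could not change direction: the detection settings, the trended prior and no time block leave a probe's estimate as it was. The dimmer TJP1 probe ranged from -0.072 to 0.17 over left-out pairs. A slide term gave the same arm estimates as leaving out the 45 h pair, the only pair split between slides (-0.011 for this probe in both). These are 1 check, and its reversal is counted under both names. The brighter CLDN2 probe turned to -0.034 for time in culture with a slide term, and ranged from -0.36 to 1.12 over left-out arrays.

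Over all probes, the count for the arms was 0 as reported, 143 with normexp, 20 with the trended prior, 21 with no time block and 1 without the 30 h pair. For the slope it was 0, and 301 with median scaling, 1802 with normexp, 1831 with the trended prior and 2 among probes detected on all arrays. For time it was 2302, and 4198 with normexp, 3842 with the trended prior, and 0 with no detection filter, with a slide term or without any 1 array. The 2-fold counts were 1034, 1524 and 2335, and 109, 220 and 623 with normexp, 1916, 3453 and 5433 at 1.5-fold, and 687 at 30 h with dim arrays at their bound.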
